A study of Mus musculus with 16 samples.

Results

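The wild-type mouse lines TET_WT and DNMT_WT were set against each other in promoter-capture Hi-C, an assay that enriches ligated pairs of DNA fragments for those with a gene promoter at 1 end. TET_WT is the line from which TET_KO was made by knocking out the demethylating enzymes Tet1, Tet3 and Tet2. DNMT_WT is the line from which DNMT_KO was made by knocking out the methyltransferase genes Dnmt3a, Dnmt3b and Dnmt1. Each was measured as embryonic stem cells (ESC) kept in 2i/Lif at day 0 and as epiblast-like cells (EpiLC) at day 2. The wild types account for 8 of the 16 samples, with 2 replicates in each of 4 groups. The deposited table holds 1 column of scores per group, so the wild types are 4 of its 8 columns, and the knock-outs serve here only as columns from the same 2 families. Neither wild type carries a named allele, the sources used here name no strain or clone for either, and no single column has an SD.

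DNA methyltransferases add methyl groups to cytosine, and TET enzymes oxidise them. Neither wild type has any of these 6 genes knocked out. With 1 column per line and stage, differences of line, culture and library cannot be told apart. Cells in 2i/Lif resemble the naive inner cell mass and carry little DNA methylation, and EpiLC resemble the epiblast after implantation, when methylation returns. The values used are CHiCAGO scores, which measure how far the reads between a promoter fragment (bait) and another fragment exceed those modelled for their distance and technical background. A score of 5 is the usual threshold for a call. Contact scores do not measure expression, so the cell type labels could not be checked against marker genes here.

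The 4 wild-type columns were alike in size. Of 260860 listed interactions of 20017 baits, 87554 were called in DNMT_WT ESC, 86557 in TET_WT ESC, 87991 in DNMT_WT EpiLC and 93930 in TET_WT EpiLC. Every listed interaction scored 5 or more in at least 1 of the 8 columns, knock-outs included. Shares of all interactions below are therefore shares of listed ones, not of all pairs of fragments. Sequencing depth is unknown. The DNMT_WT ESC column stood apart from the other DNMT columns in its long-range contacts. It held 205 calls over 5 Mb within chromosome 4, where DNMT_WT EpiLC held 2222 and the DNMT_KO columns 1755 and 1933. It also held 4 groups of calls between chromosomes, of 26, 21, 13 and 13 interactions, in pairs of 5 Mb windows where none of the other 7 columns had a call. Every value repeated at both stages rests on this column, so the EpiLC values and the knock-out columns are given beside the results. Whether the column holds reads of more than 1 line was not tested.

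At each stage the lines shared a little over 50% of their calls. In ESC 45238 interactions were called in both lines, 52.3% of those of TET_WT and 51.7% of those of DNMT_WT. In EpiLC 49415 were shared, 52.6% and 56.2%. Going from ESC to EpiLC within a line gave a similar overlap. TET_WT shared 47513 calls between its stages (54.9% of its ESC and 50.6% of its EpiLC calls) and DNMT_WT shared 43572 (49.8% and 49.5%). Promoter values, defined below, correlated more between lines at 1 stage (Spearman 0.60 in ESC and 0.645 in EpiLC) than between stages within a line (0.559 in TET_WT and 0.494 in DNMT_WT), over 15677 promoters. These correlations are descriptions across promoters, which share columns and are not independent replicates.

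The lines differed in how far their calls reached. DNMT_WT had more calls under 100 kb than TET_WT at both stages, 17305 against 15213 in ESC and 16716 against 15927 in EpiLC. Between 100 kb and 1 Mb the lines were level in ESC (67817 in DNMT_WT and 67751 in TET_WT), and TET_WT had more in EpiLC (72568 against 63554). Over 10 Mb the order turned with stage, with 427 calls in DNMT_WT and 553 in TET_WT in ESC, against 2145 and 663 in EpiLC. The shortest class was therefore the 1 of these 3 in which the order of the lines repeated. These counts were not tested, since an exact permutation of 2 columns against 2 cannot go below p = 0.333.

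For each promoter, the value was the mean asinh of the quantile-normalised score over its listed interactions. A difference of 0.693 (ln 2) on this scale corresponds to a doubling of high scores. The test was limma's moderated fit of line with stage as a block over the 4 wild-type columns, so its 1 residual degree of freedom is how far the line difference varied between stages. Moderation (eBayes) pools this spread over all promoters, and the pool carried 17 degrees of freedom. Each standard error and p-value therefore rests mostly on other promoters. Of 15677 promoters, 1 was higher in TET_WT at an adjusted p under 0.05 (0.00638%) and 2 were lower (0.0128%). Without scaling between columns 50 were called higher and 30 lower. At an unadjusted p under 0.05 there were 1296 (8.27%), 641 higher and 655 lower. In simulated data of this size, 72.5% of promoters given a difference of 0.693 and 96% of those given 1 were recovered, and 5.23% and 10.3% of the calls were false. The simulation drew independent noise, with no stage effect and no column that stood apart. Its rates therefore need not hold for the columns compared here. The median standard error was 0.179.

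Pramel1 was the promoter with the lowest TET_WT value relative to DNMT_WT. It belongs to the PRAME-like genes, a multigene family that lies in clusters, so reads from near-identical copies may not be told apart. Its bait lies on chromosome 4 at 143394418 to 143399756 (GRCm38), with 20 interactions scored in all columns. Fewer than 3 of these lie within 1 Mb, so it has no value over that range. The value was 1.63 in DNMT_WT ESC and 3.37 in DNMT_WT EpiLC, and it was 0.10 in TET_WT ESC and 0.07 in TET_WT EpiLC. The lines did not overlap, and the mean difference was -2.42 ± 0.37 (SE; limma, adjusted p = 0.0271). The difference was -1.53 in ESC and -3.30 in EpiLC, a spread that this SE, drawn mostly from other promoters, does not show. The family pattern was the same in the knock-outs, at 3.09 and 3.10 in DNMT_KO and 0.07 and 0.19 in TET_KO. Calls numbered 11 and 33 of 37 in DNMT_WT and 0 in both TET_WT columns, and 27 and 31 in DNMT_KO and 0 in both TET_KO columns. All 37 were thus listed through a call in a DNMT column. The low TET values, the p-value and the knock-out pattern are therefore not independent of how interactions were listed. With the DNMT_WT ESC column left out of a fit over the 7 others, an alternative chosen after seeing the data, the difference was -3.27. That fit keeps 1 DNMT_WT column, so it repeats nothing within DNMT_WT.

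Cln8 was the promoter called higher in TET_WT. It encodes a membrane protein of the endoplasmic reticulum, mutated in a form of neuronal ceroid lipofuscinosis. Its bait lies on chromosome 8 at 14879149 to 14883619, with 6 scored interactions. The value was 0.70 in DNMT_WT ESC and 2.56 in TET_WT ESC, and 2.23 and 3.07 in EpiLC. The mean difference was 1.35 ± 0.19 (SE; limma, adjusted p = 0.0147). A single column was low, since the other 7 columns all lay at 2.06 or above and the knock-outs differed by 0.22 in ESC and -0.05 in EpiLC. Without DNMT_WT ESC the difference fell to 0.68, so the size of the called difference depended on that column.

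The remaining call was U6.457, a copy of the U6 spliceosomal RNA gene on chromosome 7, with 3 scored interactions. Its value was 2.73 in DNMT_WT ESC and 2.20 in DNMT_WT EpiLC, against 1.09 and 1.05 in TET_WT, a mean difference of -1.39 ± 0.22 (SE; limma, adjusted p = 0.0271). The 2 wild types did not overlap. The knock-outs did not keep the order, with TET_KO above DNMT_KO by 0.35 in ESC and a difference of -0.56 in EpiLC. U6 copies are near-identical, so this call is uncertain. Without DNMT_WT ESC its difference was -1.26. With that column left out 1 DNMT_WT column remains, so that fit cannot show whether any of the 3 calls repeats. None of the 3 passed the threshold in a fit without the stage block (adjusted p = 1 for each) or without the eBayes trend (adjusted p = 0.558 for each).

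Promoter sequence from RefSeq (GRCm38.p6, 250 bases before to 50 after the gene's start) is shown for 3 of the baits named in the text. They are Pramel1 (high in the DNMT family), Tmem39b (higher in the TET family) and Kcnk16 (the chromosome 14 bait with the most contacts repeated in TET_WT). Of these, only Pramel1 was a called promoter. Methylation acts on CpG, and it is not among the values used here. Capitals mark each CpG. The windows are chr4:143394191-143394490 on the plus strand, chr4:129696796-129697095 on the minus strand and chr14:20269220-20269519 on the minus strand.
Pramel1: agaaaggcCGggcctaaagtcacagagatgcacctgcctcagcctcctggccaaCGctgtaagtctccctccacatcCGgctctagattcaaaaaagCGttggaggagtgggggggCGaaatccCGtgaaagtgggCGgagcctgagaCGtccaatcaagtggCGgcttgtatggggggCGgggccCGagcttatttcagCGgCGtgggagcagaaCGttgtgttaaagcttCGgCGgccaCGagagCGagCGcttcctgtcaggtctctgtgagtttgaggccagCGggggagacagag
Tmem39b: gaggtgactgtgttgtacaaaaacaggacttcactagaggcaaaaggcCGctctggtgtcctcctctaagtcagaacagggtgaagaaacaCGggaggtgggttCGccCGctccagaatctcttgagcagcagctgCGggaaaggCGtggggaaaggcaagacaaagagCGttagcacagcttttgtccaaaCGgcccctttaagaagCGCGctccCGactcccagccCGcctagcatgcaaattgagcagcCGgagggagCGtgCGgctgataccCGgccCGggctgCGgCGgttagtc
Kcnk16: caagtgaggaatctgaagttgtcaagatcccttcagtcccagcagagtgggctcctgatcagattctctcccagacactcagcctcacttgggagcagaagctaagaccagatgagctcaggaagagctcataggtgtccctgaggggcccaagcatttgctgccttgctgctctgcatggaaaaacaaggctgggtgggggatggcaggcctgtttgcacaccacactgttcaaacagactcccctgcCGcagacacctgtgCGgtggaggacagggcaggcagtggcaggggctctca
Pramel1 holds 20 CpG, Tmem39b 19 and Kcnk16 2. The motif CG reads the same on both strands, and 94.6% of 32851 RefSeq promoters hold at least 1. The HindIII motif AAGCTT, also the same on both strands, is in the Pramel1 window and in 7.45% of all promoters, and the Pramel1 bait fragment begins inside that window. Of the 15677 promoters, 8307 could be matched by symbol to a sequence overlapping the bait, with a median of 15 CpG.

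A difference of a doubling at a single stage was common and seldom repeated. TET_WT exceeded DNMT_WT by that much at 337 promoters in ESC (2.15%) and fell short by it at 299 (1.91%), and in EpiLC at 358 (2.28%) and 403 (2.57%). In the same direction at both stages were 28 higher and 25 lower promoters, 53 in all (0.338%), and 34 were past a doubling in opposite directions. Promoters with few interactions made up most of the 53, since 48 had under 10, as did 45.5% of all promoters. The differences of the 2 stages had the same sign at 53.6% of promoters, with Pearson r = 0.11 across promoters. Those whose sequence could be matched had a median of 14 CpG among the higher (13 promoters) and 3 among the lower (15 promoters).

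**Figure D1:**
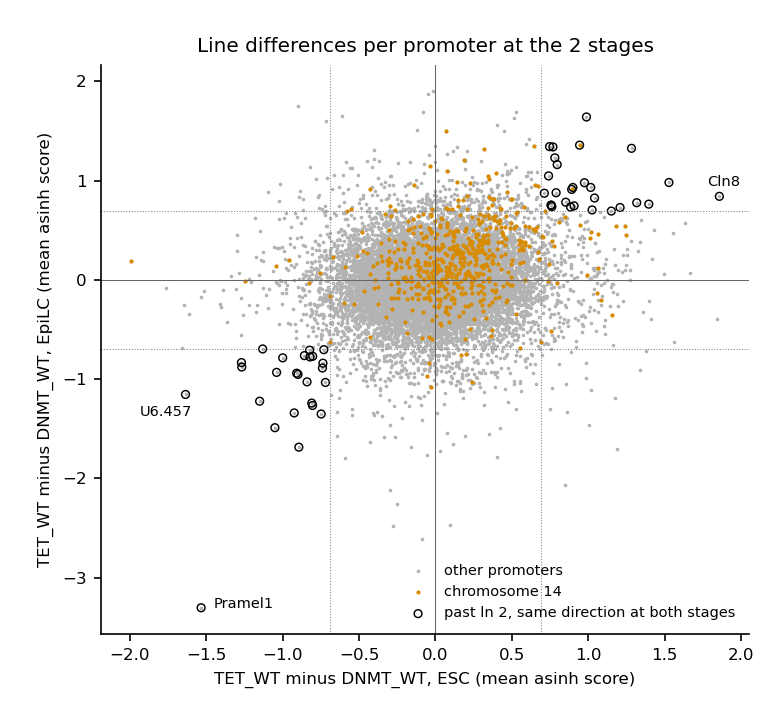
Each point is 1 of 15677 promoters, with the difference TET_WT minus DNMT_WT in ESC (x) and in EpiLC (y), both as mean asinh score. Dotted lines mark ln 2, open circles the 53 promoters past it in the same direction at both stages, and orange points chromosome 14, whose points lie more often to the upper right.

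The knock-outs of the same families, whose differences did not enter the choice of the 53, were set beside the wild types. TET_KO and DNMT_KO differ in genotype as well as in line, so neither agreement nor disagreement can be put down to line alone. Their columns also entered the quantile normalisation and the requirement of a score in all 8 columns. Of the 28 promoters higher in TET_WT, 13 were also higher in TET_KO than in DNMT_KO at both stages and 5 lower at both. Of the 25 lower ones, 8 were lower in TET_KO at both stages and 3 higher at both. Over all promoters 30.1% were higher and 30.7% lower in TET_KO at both. A doubling in the same direction in both knock-out comparisons was reached by 2 of the 28 and 2 of the 25, against 0.95% of all promoters in the higher and 0.727% in the lower direction. The ESC difference of the wild types correlated with the knock-out differences at 0.067 in ESC and -0.08 in EpiLC across promoters, and the EpiLC difference at 0.22 and 0.25. The weaker relation of the ESC difference goes with the column that stood apart, whose part in it was not tested.

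Among promoters with at least 10 interactions, the 10 with the largest mean excess in TET_WT had adjusted p from 0.158 to 0.602, so none passed the threshold. Tmem39b, a transmembrane protein gene on chromosome 4, had the lowest p. Its value was 1.96 and 1.35 in DNMT_WT (ESC, EpiLC) and 2.51 and 2.32 in TET_WT, a mean difference of 0.76 ± 0.16 (SE; limma, adjusted p = 0.158). TET_KO also stood above DNMT_KO, by 0.79 and 0.68. With missing scores set to 0, the wild-type difference turned to -1.19 (adjusted p = 0.384). Kbtbd8, an adaptor of a ubiquitin ligase on chromosome 6, had the largest difference, with 0.54 and 0.71 in DNMT_WT and 1.32 and 1.94 in TET_WT. Dhx35, an RNA helicase gene of chromosome 2, kept the order in all 4 comparisons, at 0.56 and 0.77 in DNMT_WT, 1.18 and 1.71 in TET_WT, 0.66 and 0.67 in DNMT_KO and 1.16 and 1.37 in TET_KO. The families did not overlap at Dhx35, but over interactions within 1 Mb the wild-type difference was 0.105, against 0.78 over all. In all, 7 of the 10 had the same sign in both knock-out comparisons.

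The others of the 10 were Gm16549, Gcap14, AC114657.1, Sap18, Yipf4, CT025603.1 and Slc39a14. Of the 10, 4 lie on chromosome 14 (Gm16549, Gcap14, Sap18 and Slc39a14). Slc39a14, a zinc and manganese transporter gene, had 1.40 and 1.64 in DNMT_WT and 2.24 and 2.28 in TET_WT, and its knock-outs differed by 0.34 in ESC and by -0.06 in EpiLC. Sap18, a subunit of the Sin3 corepressor, had 1.34 and 1.59 in DNMT_WT and 2.28 and 2.15 in TET_WT, and its knock-outs also changed sign, at 0.42 and -0.19. Neither had the line order of the wild types in both pairs of knock-out columns.

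Of the 10 lower promoters, only Pramel1 passed the threshold, and 5 lie on chromosome 4 (Pramel1, Mir700, Phactr4, Fuca1 and Tmem51). These 5 shared a family pattern. Phactr4, a regulator of protein phosphatase and actin, had 1.87 and 3.00 in DNMT_WT, 1.44 and 1.37 in TET_WT, 2.68 and 2.90 in DNMT_KO and 1.34 and 1.36 in TET_KO, a wild-type difference of -1.03 ± 0.23 (SE; limma, adjusted p = 0.187). Fuca1, a lysosomal fucosidase gene, had 1.32 and 2.76 in DNMT_WT and 1.06 and 1.17 in TET_WT. Mir700 had 0.83 and 2.84 against 0.53 and 0.72. At all 3 the difference was larger in EpiLC than in ESC, and DNMT_WT ESC lay nearer to the TET columns than the other DNMT columns did. Over interactions within 1 Mb the wild-type difference was -0.08 at Phactr4, -0.085 at Fuca1, -0.268 at Tmem51 and -1.2 at Mir700. With DNMT_WT ESC left out, the difference was -3.27 at Pramel1, -1.57 at Phactr4, -2.12 at Mir700 and -1.59 at Fuca1. Each of these rests on 1 DNMT_WT column.

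Away from chromosome 4, U1.174, a copy of the U1 spliceosomal RNA gene on chromosome 2, had 37 interactions and repeated closely in the wild types. Its value was 2.34 and 2.48 in DNMT_WT and 1.44 and 1.53 in TET_WT, a difference of -0.93 ± 0.17 (SE; limma, adjusted p = 0.109). The knock-outs differed by 0.51 in ESC and -0.17 in EpiLC, so TET_KO was not low. Gm5155 on chromosome 7 had 1.91 and 1.70 in DNMT_WT and 1.09 and 0.93 in TET_WT. CT025708.1 on chromosome 17 had 1.52 and 2.02 against 1.11 and 0.65.

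**Figure D2:**
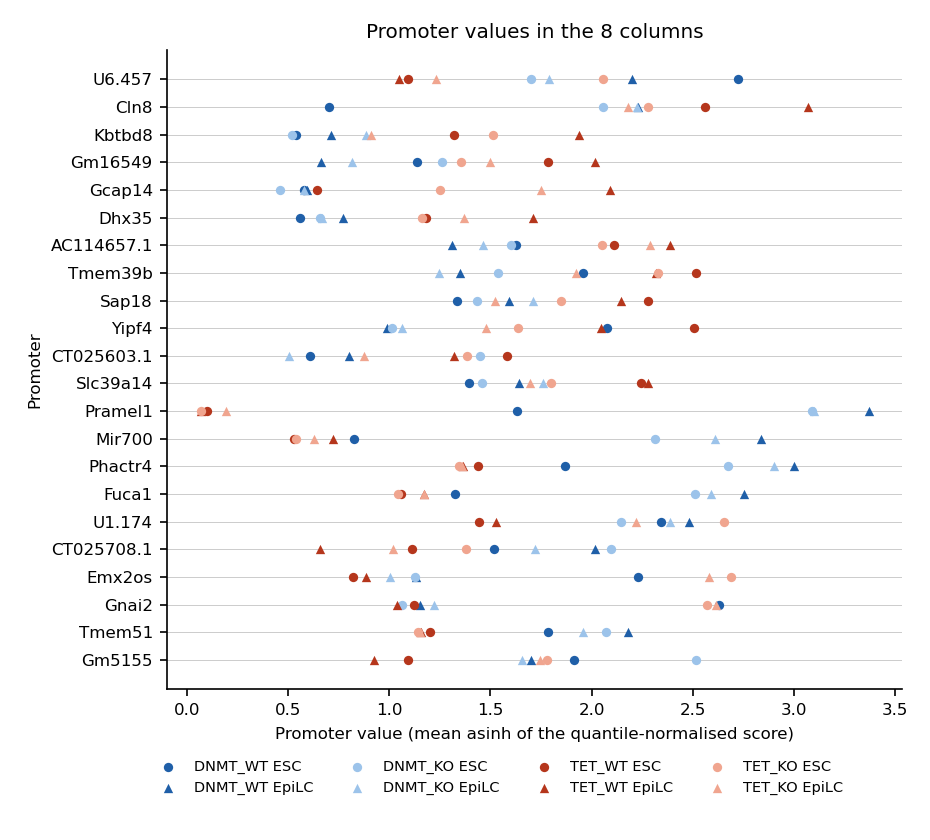
Promoter values (mean asinh of the quantile-normalised score, x) in the 8 columns for the promoters named in the text, with circles for ESC, triangles for EpiLC, blue for the DNMT and red for the TET family, dark for wild type and light for knock-out. At Pramel1 the TET columns lie at 0.19 or below, and at Emx2os and Gnai2 DNMT_WT ESC lies with TET_KO.

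Whole chromosomes differed by small amounts between the lines, and chromosome 14 did so at both stages. The median difference over its 582 promoters was 0.127 in ESC and 0.186 in EpiLC, against -0.0128 and -0.00942 over all promoters. TET_WT was higher at both stages at 51.7% of its promoters, where 25.2% of all promoters were, and lower at both at 10.8%, where 28.4% of all were. The shift was spread along the chromosome, since 28 of its 36 windows of 2 Mb with at least 5 promoters had a median above 0 at both stages and 1 below 0 at both. Over the genome 235 of 888 windows lay above 0 at both and 259 below. The knock-out medians were also above 0, at 0.0638 in ESC and 0.108 in EpiLC, against -0.00269 and -0.00251 over all promoters. In the ESC knock-outs the medians of chromosomes 13 (0.0768) and X (0.071) were higher. Promoters of a chromosome are not independent, and the medians were not tested. Chromosomes were compared after their values were seen.

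The chromosome 14 shift came with both lines' columns. The median promoter value on this chromosome was 1.879 in DNMT_WT ESC and 1.817 in DNMT_WT EpiLC, and 2.011 and 2.007 in TET_WT. It was 1.852 and 1.835 in DNMT_KO and 1.927 and 1.945 in TET_KO. So both TET_KO columns lay above both DNMT_KO columns and below both TET_WT columns. Chromosome 6 was also higher in TET_WT at both stages, with medians of 0.0885 and 0.11 over 828 promoters, and its knock-out medians were 0.0564 and 0.0145. Other chromosomes did not repeat to this extent. Chromosome 3 had a median of -0.16 in ESC and -0.0213 in EpiLC. Chromosome 8 had 0.118 and 0.0154, while its knock-outs had -0.203 and -0.164. Chromosome 4, which carries 5 of the 10 lower promoters, had medians of -0.0197 and -0.0579, close to those of all promoters.

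**Figure D3:**
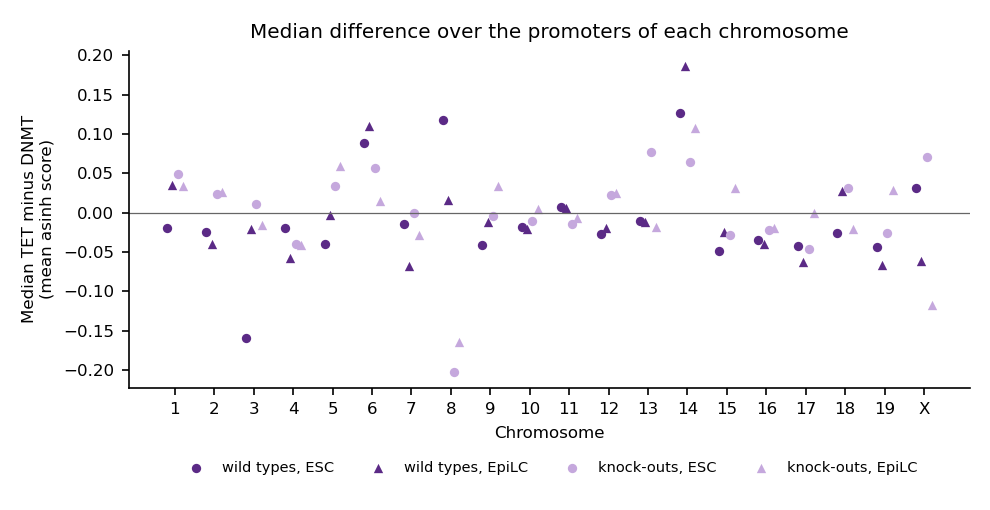
Median over each chromosome's promoters of the difference TET minus DNMT (mean asinh score, y) in the wild types (dark) and the knock-outs (light), with circles for ESC and triangles for EpiLC. Chromosome 14 is highest at both wild-type stages, at 0.127 and 0.186, and chromosome 8 changes sign between the wild types and the knock-outs.

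At a finer scale of 2 Mb, 2 windows held more than 1 promoter past a doubling at both stages, 1 in each direction. The window of chromosome 8 from 14 to 16 Mb, which holds Cln8, had 2 of 8 promoters higher in TET_WT at both stages, and its medians were 0.263 and 0.124. The window of chromosome 5 from 114 to 116 Mb had 2 of 27 lower, and its medians were -0.188 and -0.00391. The window of chromosome 6 from 94 to 96 Mb, which holds Kbtbd8, had medians of 0.490 and 0.338 over 5 promoters. The window of chromosome 4 from 142 to 144 Mb, which holds Pramel1, had medians of -0.309 in ESC and -1.035 in EpiLC over 8 promoters, and its knock-out medians were -0.780 and -0.648. No window of the genome had more than 2 promoters past a doubling in 1 direction at both stages.

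Single contacts were compared as scores of 5 or more in both columns of a line and under 3 in both columns of the other, over the 248402 interactions scored in all 4 wild-type columns. Such contacts numbered 1020 for TET_WT (0.411%), from 806 baits, and 590 for DNMT_WT (0.238%), from 512 baits. The background of the same rule with the lines crossed between stages was 483 for TET_WT ESC with DNMT_WT EpiLC and 670 for DNMT_WT ESC with TET_WT EpiLC. The TET_WT number was above both crossed numbers and the DNMT_WT number lay between them. The same rule applied to stage instead of line gave 899 contacts in both ESC columns and 1531 in both EpiLC columns. Within a single stage, 17052 (ESC) and 16504 (EpiLC) contacts were high in TET_WT and low in DNMT_WT, so most did not repeat.

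The contacts repeated in a line reached far and partly lay side by side. Their median distance was 392 kb in TET_WT and 379.8 kb in DNMT_WT, against 266.8 kb over all 248402, and 440.6 and 412.2 kb in the crossed sets. In TET_WT 87 of the 1020 (8.53%) had another such contact of the same bait within 3 fragments, and in DNMT_WT 32 of 590 (5.42%) did. In the crossed sets the shares were 12 of 483 (2.48%) and 14 of 670 (2.09%). Adjoining fragments share ligation products and so are not independent. Promoter fragments made up 7.25% of the other ends in TET_WT and 10.8% in DNMT_WT, against 8.49% of all.

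In the knock-outs, columns that did not enter the choice, the contacts leaned to the line they came from. Of 972 TET_WT contacts scored in all 8 columns, 44.4% had a higher score in TET_KO than in DNMT_KO at both stages, against 34.4% of all interactions, and 13.5% a lower one, against 22.3%. Of 563 DNMT_WT contacts, 32.5% were higher in DNMT_KO at both stages, against 22.3%, and 24.9% lower, against 34.4%. In the crossed sets 28.7% and 34.9% were higher in TET_KO at both stages, and 25.9% and 16.7% in DNMT_KO. The full rule was met again in the knock-outs by 37 of the 972 in the same direction (3.81%, against 0.923% of all interactions) and by 4 in the other. Of the 563, 18 met it in the same direction (3.2%, against 0.36% of all) and 9 in the other. In the crossed set of TET_WT ESC with DNMT_WT EpiLC, 13 of 460 (2.83%) met it in the TET direction and 5 (1.09%) in the DNMT direction. In that of DNMT_WT ESC with TET_WT EpiLC, 14 of 664 (2.11%) and 1 (0.151%) did. Both crossed shares in the TET direction also exceeded that of all interactions. Most contacts that separated the wild types at both stages thus did not meet the rule in the knock-outs.

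Chromosome 14 held the most TET_WT contacts for its number of interactions, 128, or 11.7 per 1000, against 4.11 per 1000 over all chromosomes. DNMT_WT had 12 there, or 1.1 per 1000 against 2.38, and the crossed sets had 16 and 32. Chromosome 1 followed with 7.61 per 1000 and chromosome 6 with 6.21. Of the 109 on chromosome 1, 24 belong to the bait Hjurp and 19 to Ugt1a1. Chromosome 3 had the most for DNMT_WT, 59 or 4.68 per 1000, and 1.59 per 1000 for TET_WT. Its crossed sets had 6 for TET_WT ESC with DNMT_WT EpiLC and 44 for DNMT_WT ESC with TET_WT EpiLC. On chromosomes 14, 6 and 3 the promoter values departed from 0 in the same directions, and both measures come from the same scores.

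The baits with the most such contacts were few. Kcnk16, a gene for a potassium channel, lies on chromosome 14 at 20268832 to 20275732. It had 45 and 48 calls in DNMT_WT, 104 and 103 in TET_WT, 38 and 37 in DNMT_KO and 51 and 47 in TET_KO, of 119 interactions. TET_WT alone stood apart, and 10 contacts met the rule for TET_WT and 0 for DNMT_WT. A contact with the Gng2 locus, a G protein subunit gene, 337.303 kb away scored 1.663 and 1.018 in DNMT_WT and 8.267 and 11.68 in TET_WT. On the same chromosome 1810063B07Rik had 6, and the neighbouring baits 2610301G19Rik (from 70152847) and 9930012K11Rik (from 70159106) had 7 each, with contacts over Hr, Phyhip and Bmp1.

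Itgb1bp1, whose protein binds an integrin tail, had 8 contacts for TET_WT and 0 for DNMT_WT on chromosome 12, and Ccdc9 had 5 and 0. Hjurp, the chaperone of the centromeric histone, had 24 for TET_WT and also 13 for DNMT_WT, and Ugt1a1, a bilirubin-conjugating enzyme gene, had 19 and 1. Both join the region near 88 Mb of chromosome 1 to the first 5 Mb of that chromosome. This pairing was called in every column, with 191 and 294 calls in DNMT_WT and 285 and 344 in TET_WT. Tmem39b had 3 contacts for TET_WT, with 6 and 2 calls in DNMT_WT and 17 and 14 in TET_WT, 2 and 1 in DNMT_KO and 14 and 8 in TET_KO. At least 3 contacts were reached by 33 baits for TET_WT and 11 for DNMT_WT.

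For DNMT_WT, Hjurp had the most contacts with 13, and Pramel1 followed with 10. The Pramel1 contact with a fragment 1010.13 kb away, over Gm42339, scored 21.43 in DNMT_WT ESC, 113.7 in DNMT_WT EpiLC and 0 in both TET_WT columns. U1.174 had 4, with 20 and 24 calls in DNMT_WT and 3 and 5 in TET_WT, but 32 and 19 in TET_KO. Ccdc70 on chromosome 8 had 3, with 39 and 34 calls in DNMT_WT and 13 and 13 in TET_WT, and 45, 35, 24 and 27 in the knock-outs (DNMT_KO ESC and EpiLC, then TET_KO). At U1.174 TET_KO was not low, and at Ccdc70 it lay between TET_WT and the DNMT columns.

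The largest single difference for TET_WT joined Cd244, an immune cell receptor gene of chromosome 1, to a fragment on chromosome 14 at 90084435 to 90087987. Its score was 67.51 in TET_WT ESC and 86.66 in TET_WT EpiLC, 0 in all 4 DNMT columns, and 65.95 and 27.45 in TET_KO. A contact of U6.639 on chromosome 2 with chromosome 1 had the same family pattern, with 31.83 and 39.02 in TET_WT, 9.512 and 9.882 in TET_KO and 0 in all DNMT columns. The contact of Mrps11, a mitochondrial ribosomal protein gene, with chromosome 4 scored 24.04 and 25.31 in TET_WT and 0 in DNMT_WT, but 3.1 and 3.902 in TET_KO. At Lmod1, Defb14 and A430033K04Rik a DNMT_KO column also passed 5, with 13.15, 5.045 and 14.3 as its highest scores.

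Within 1 Mb the clearest TET_WT contact joined Actr1b, an actin-related subunit of dynactin, to fragments over Fam178b on chromosome 1. The fragment 114.605 kb away scored 0.06779 and 0.1611 in DNMT_WT, 10.18 and 13.02 in TET_WT, 0.1484 and 0.1445 in DNMT_KO and 6.62 and 4.766 in TET_KO. The adjoining fragment scored 1.131 and 0.5047 in DNMT_WT, 13.27 and 12.93 in TET_WT and 10.36 and 7.005 in TET_KO. All DNMT columns lay below all TET columns at both fragments. The contact of Olfr1347, an olfactory receptor gene, with Usp29 scored 8.708 and 5.639 in TET_WT, and its highest score in the other 6 columns was 0.2896. The contact of Gfpt2, an enzyme of the hexosamine pathway, with Trim7 scored 5.614 and 5.803 in TET_WT and 0 in both DNMT_WT and both TET_KO columns. These 2 were thus high in TET_WT and not in the knock-out derived from it.

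For DNMT_WT the largest differences lay on chromosome 4. SNORD103.1, a small nucleolar RNA gene, and U6.866 scored 56.1 in ESC and 292.4 in EpiLC with each other in DNMT_WT and 0 in both TET_WT columns. Phactr4 and Fuca1 scored 17.12 and 159.2 in DNMT_WT, 31.87 and 162 in DNMT_KO, and 0 in all 4 TET columns. Within 1 Mb, Gm13133 and a fragment over Prkcz, an atypical protein kinase C gene, scored 7.384 and 19.12 in DNMT_WT, 26.45 and 26.28 in DNMT_KO, and 0 in all TET columns. Each of these 3 was lower in DNMT_WT ESC than in DNMT_WT EpiLC.

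Away from chromosome 4, Cebpa, a transcription factor of myeloid and fat cells, had a DNMT_WT contact 253.412 kb away. It scored 5.443 and 5.564 in DNMT_WT and 0.4174 and 0.04637 in TET_WT. The knock-outs scored 6.048 and 2.639 in DNMT_KO and 4.265 and 3.323 in TET_KO, so they overlapped.

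**Figure D4:**
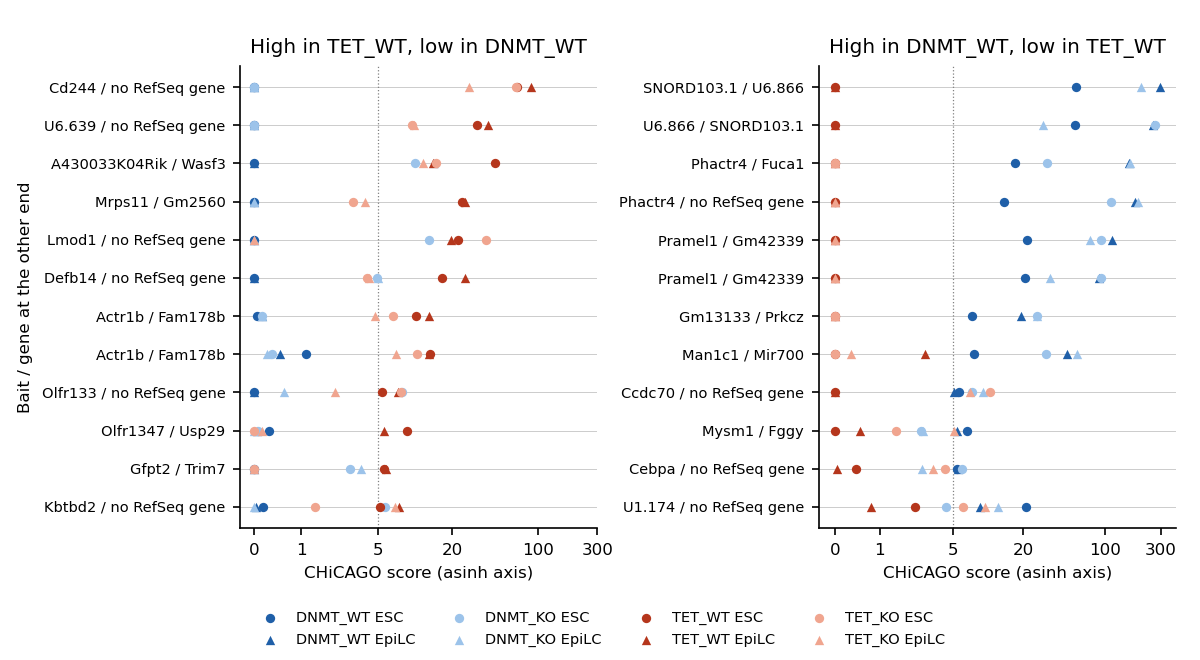
CHiCAGO scores on an asinh axis of the contacts with the largest difference between the lines, over all distances (top 6 of each panel) and within 1 Mb (bottom 6), with symbols by column and a dotted line at the calling score of 5. Cd244 and Actr1b are high in all or nearly all TET columns, and Phactr4 and Pramel1 in all DNMT columns; a missing score has no symbol.

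Some blocks of far contacts were called in 1 wild type at both stages and in the other at neither. In 5 Mb windows paired over more than 5 Mb or between chromosomes, 7 pairs had at least 10 calls in both DNMT_WT columns and none in TET_WT. All 7 had calls in both DNMT_KO columns and none in TET_KO. Of these, 6 lie within chromosome 4 between 125 and 155 Mb. The pair of 130 to 135 with 140 to 145 Mb had 28 calls in DNMT_WT ESC and 516 in DNMT_WT EpiLC, 420 and 361 in DNMT_KO and 0 in all TET columns. The other pair joined chromosome 14, 50 to 55 Mb, with chromosome 8, 75 to 80 Mb, and had 10 and 45 calls in DNMT_WT and 48 and 49 in DNMT_KO. In the TET columns most interactions of these pairs had no score at all, 624 of 682 in TET_WT ESC for the first of them.

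Another 4 pairs had at least 10 calls in both TET_WT columns and none in DNMT_WT, and none of the 4 had a call in a knock-out column. Chromosome 6, 25 to 30 Mb, with chromosome 8, 90 to 95 Mb, had 213 calls in TET_WT ESC and 298 in TET_WT EpiLC, and 323 of its 328 interactions belong to the bait of Mt1, a metallothionein gene. Chromosome 17, 40 to 45 Mb, with chromosome 7, 40 to 45 Mb, had 53 and 66, and with chromosome 7, 35 to 40 Mb, 30 and 38, almost all from the bait Gm17495. Chromosome 1, 170 to 175 Mb, with chromosome 15, 70 to 75 Mb, had 10 and 14 from 12 baits. A pair of chromosome 12, 15 to 20 Mb, with chromosome 7, 10 to 15 Mb, had 4 and 12 in TET_WT and 0 in the other 6 columns. A pair of chromosome 18, 20 to 25 Mb, with chromosome 5, 65 to 70 Mb, had 8 and 11 in TET_WT. It had 4 and 3 in TET_KO, 1 and 0 in DNMT_WT and 0 in both DNMT_KO columns. This pair and that of chromosome 12 fell short of 10 calls in TET_WT ESC. The 7 far blocks of DNMT_WT that met the rule were thus shared with DNMT_KO. The 4 of TET_WT that met it were not shared with TET_KO.

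A further 14 pairs had no call in TET_WT and under 10 in at least 1 DNMT_WT column. Chromosome 1, 75 to 80 Mb, with chromosome 4, 140 to 145 Mb, had 7 calls in DNMT_WT ESC, 328 in DNMT_WT EpiLC and 138 and 161 in DNMT_KO. Chromosome 1, 180 to 185 Mb, with chromosome 7, 15 to 20 Mb, had 3 and 40 in DNMT_WT and also 37 and 44 in TET_KO, so TET_WT alone lacked it. The pair of chromosome 10, 5 to 10 Mb, with chromosome 16, 85 to 90 Mb, was alike, with 2 and 27 in DNMT_WT and 20 and 24 in TET_KO.

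**Figure D5:**
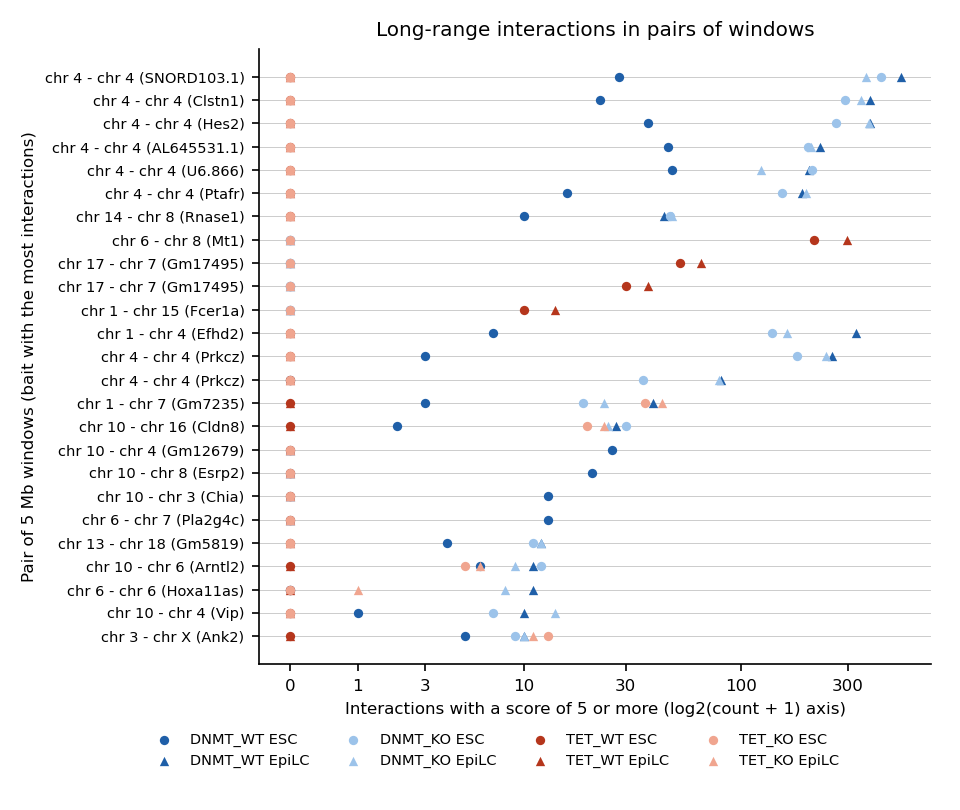
Number of interactions with a score of 5 or more (log2(count + 1) axis) in the 8 columns, for the 7, 4 and 14 pairs of 5 Mb windows with at least 10 calls in both columns of 1 wild type and none in the other, or with none in TET_WT. The DNMT columns alone fill the top 7 pairs, TET_WT alone the next 4, and DNMT_WT ESC alone 4 of the others.

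Interactions without a score also followed the lines. Both TET_WT columns and neither DNMT_WT column lacked a score at 3457 interactions, of which 2833 touch chromosome 4 and 2342 also lacked one in both TET_KO columns. Both DNMT_WT columns and neither TET_WT column lacked one at 926, of which 702 also lacked one in both DNMT_KO columns. The crossed backgrounds were 163 and 217. All interactions of a bait were without a score in TET_WT for 35 baits and in DNMT_WT for 35, and 10 and 22 of these lacked scores in both knock-outs of the family too. The missing scores thus repeated by family more than crossed between them.

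Among the DNMT_WT baits without scores was Mrpl20, a mitochondrial ribosomal protein gene on chromosome 4, which had 8 and 7 calls in TET_WT, 5 and 5 in TET_KO and 0 in DNMT_KO. Oit1 on chromosome 14 was alike, with 3 and 4 calls in TET_WT and 3 and 4 in TET_KO. Ifi30, a lysosomal thiol reductase gene, lacked scores in TET_WT and had 8 and 14 calls in DNMT_WT, but it had 11 and 28 in TET_KO. Eed, a core subunit of Polycomb repressive complex 2, lacked them in TET_WT and had 3 and 3 calls in DNMT_WT and 3 and 3 in TET_KO. At Ifi30 and Eed the missing scores therefore belonged to TET_WT and not to its knock-out.

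Of the 25 gene lists examined, none held a called promoter except the small nuclear and nucleolar RNA copies, with U6.457. Naive pluripotency genes had the highest share at an unadjusted p under 0.05, 5 of 18 (27.8%, against 8.27% of all promoters), and a median difference of 0.13 against -0.011. The 5 were Tdh, Klf5, Jam2, Nanog and Dppa5a. Tdh and Klf5 lie on chromosome 14 and Nanog on chromosome 6, whose promoters were higher in TET_WT as a whole. Whether the list departs from the shift of those chromosomes was not tested. TET_WT was higher at both stages at 9 of the 18 and lower at 3. Nanog, a transcription factor of the naive state, had 2.02 and 2.11 in DNMT_WT and 2.61 and 2.40 in TET_WT, a difference of 0.44 ± 0.14 (SE; limma, adjusted p = 0.369) over 31 interactions. Its knock-outs lay at 1.74 and 2.00 in DNMT_KO and 1.75 and 1.90 in TET_KO, without the order of the wild types. Klf5, another naive factor, had 1.44 and 1.24 in DNMT_WT and 2.21 and 1.63 in TET_WT (0.58 ± 0.25 SE; limma, adjusted p = 0.54). Zfp42, a marker of the naive state, had 1.06 and 1.04 against 1.71 and 1.57 (0.59 ± 0.30 SE; limma, adjusted p = 0.624), and Esrrb, Klf4 and Sox2 had differences of -0.02, -0.06 and -0.17. None of the 18 passed the threshold.

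Formative and primed epiblast genes had a median of -0.053 with 1 of 16 at an unadjusted p under 0.05. Hox genes had a median of -0.1 with 1 of 31, and 14 of the 31 were lower and 6 higher in TET_WT at both stages. Imprinted genes had a median of -0.023 with 0 of 34 in limma's test, and none called. Olfactory receptors, 622 promoters in clusters, had a median of -0.082 with 72 (11.6%), and 212 were lower and 111 higher in TET_WT at both stages. Histocompatibility genes, which present antigens, had a median of -0.26 over 15 promoters with 1 at an unadjusted p under 0.05. Genes of DNA methylation writers and erasers had a median of 0.049 with 1 of 16. Markers of other cell types gave 1 of 8 for endoderm, 0 of 13 for trophoblast, 0 of 11 for fibroblast and 1 of 17 for blood and endothelium.

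Repeated single contacts were likewise spread over the lists. Of all 20017 baits, 4.03% had a TET_WT and 2.56% a DNMT_WT contact. Of 23 naive pluripotency baits 1 had a TET_WT contact (Dppa5a) and 0 a DNMT_WT contact, and of 19 baits of methylation writers and erasers 0 had either. Imprinted baits had 5 of 37 for TET_WT (Commd1, Zim1, Peg3, Magel2 and Mkrn3) and 2 for DNMT_WT (Kcnk9 and Peg3), and Peg3 thus had contacts of both kinds. Replication-dependent histone baits had 6 of 34 for TET_WT and 2 for DNMT_WT, and Hox baits had 1 of 31 (Hoxb3) and 4 (Hoxb7, Hoxc10, Hoxd13 and Hoxa6).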

How the data were processed

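The deposited values are CHiCAGO scores made by the authors, 1 column per group of line and stage. Per the labels, chromatin was cut with HindIII and enriched for promoter fragments. Trim Galore 0.6.5, cutadapt 2.3 and GRCm38 are named in the submitters' processing notes. The sources used here do not give the aligner, the CHiCAGO version or how the 2 replicates of a group were combined. Depth per sample is unknown, so no counting interval was possible. Of the bait fragments with a RefSeq gene of the same symbol, 98.18% lay within 2 kb of it on GRCm38.

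Promoter values used interactions scored in all 8 columns (15344 of 260860, 5.88%, were left out) and promoters with at least 3. The fit was limma 3.58.1 in R 4.3.3, with stage and line over the 4 wild-type columns, eBayes with a trend and Benjamini-Hochberg adjustment at 0.05, tested on simulated data. Its p-values measure the spread between 2 stages, pooled over promoters (17 prior degrees of freedom against 1 residual), and not the spread between cultures. Contacts, window pairs (5 Mb) and missing scores were counted without a test.

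Named promoters are the 10 largest mean differences in each direction among those past the threshold, with 1 sign at both stages and at least 10 interactions, filled by the largest of the same sign. Called promoters with fewer interactions were named after their values were seen, as were baits, window pairs and chromosomes. Named contacts are the 6 largest differences in each direction, over all distances and within 1 Mb. Members and lists were chosen with earlier results of these data known. Alternatives were other fits, scalings, filters and thresholds.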

Additional observations from a re-analysis of the deposited data

Results flagged for a closer look

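At Emx2os and Gnai2 the wild-type and knock-out families went opposite ways, and the difference between them was not tested. Emx2os, transcribed antisense to the homeobox gene Emx2, had a mean difference TET_WT minus DNMT_WT of -0.829, with 2.23 and 1.13 in DNMT_WT (ESC, EpiLC) and 0.82 and 0.88 in TET_WT, while TET_KO lay above DNMT_KO by 1.56 and 1.57. Gnai2, an inhibitory G protein subunit gene, had -0.813, with 2.63 and 1.15 in DNMT_WT and 1.12 and 1.04 in TET_WT, while TET_KO lay above by 1.51 and 1.40. At both promoters DNMT_WT ESC lay with the 2 TET_KO columns, and DNMT_WT EpiLC lay near TET_WT. With DNMT_WT ESC left out, the wild-type difference was -0.308 at Emx2os and -0.0525 at Gnai2.

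Some interactions that the comparison of scores left out were called in the line that had scores. Each listed interaction reached 5 in at least 1 column, so such calls follow in part from the listing. At 265 interactions without a score in both TET_WT columns, both DNMT_WT columns reached 5 or more. At 351 interactions without a score in both DNMT_WT columns, both TET_WT columns did.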

How the results depend on the processing

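Of the promoters, 1 was called higher and 2 lower in TET_WT. Without DNMT_WT ESC 1 DNMT_WT column remains, so that fit is counted below only among the alternatives for single promoters. The numbers were 0 and 3 with all 8 columns, 50 and 30 without scaling, 1 and 3 with columns divided by their mean, 0 and 2 with a minimum of 10 interactions, 7 and 6 within 1 Mb and 10 and 2 with missing scores at 0. Both were 0 without the stage block, without the eBayes trend, with log2(score + 1), with calls counted and with no minimum of interactions (612, 1184, 1228, 1424 and 1252 promoters at an unadjusted p under 0.05, limma). Pramel1 passed under 6 of 12 alternatives (adjusted p 1.18e-09 to 1), Cln8 under 5 of 12 and U6.457 under 3 of 11.

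Promoters past a doubling at both stages, 28 higher and 25 lower, became 8 and 9 with log2(score + 1), 148 and 116 with no minimum, 1 and 4 with a minimum of 10, 83 and 50 with missing scores at 0, and 15 higher within 1 Mb. They were 270 and 235 at a difference of 0.4 and 1 and 4 at a difference of 1.

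Contacts repeated in TET_WT (1020) and DNMT_WT (590) became 120 and 62 with a low limit of 1, and 6541 and 4968 with a low limit of 5. Without DNMT_WT ESC, 3160 were high in both TET_WT columns and low in DNMT_WT EpiLC, and 7431 were high in DNMT_WT EpiLC alone and low in both TET_WT columns, which repeats nothing within DNMT_WT. With missing scores at 0, DNMT_WT had 927. These last 2 alternatives were chosen after seeing the data. With quantile-normalised scores they were 898 and 694, against 600 and 571 crossed.

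Of 319 values of named promoters under the alternatives, 285 kept their direction and side of the threshold, 21 lost the call, 12 gained it and 1 reversed, Tmem39b at -1.19 with missing scores at 0. The cause of that reversal was not tested. Most named promoters were uncalled in the main fit, so staying uncalled counts as kept. This holds also where the difference nearly vanished, as within 1 Mb at Phactr4 (-1.03 to -0.08) and Fuca1 (-0.927 to -0.085). The tally therefore does not measure how stable the sizes were. Relative to all promoters, the chromosome 14 median stayed between 0.12 and 0.165 in ESC and between 0.179 and 0.223 in EpiLC.

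No paired analysis was possible because the replicates of a group share 1 column, so leaving out replicates could not be run. The missing scores, the unknown depth and the 1 residual degree of freedom limit what single promoters can show.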
